A study of Mus musculus with 4 samples.

Results

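The genes described here were 9 genes used as markers of the glial cells of the brain, out of 21938 protein-coding genes of chromosomes 1 to 19, X and Y in the GENCODE M21 annotation of mm10. They were chosen by name when earlier results of these data were known, with Gfap, Aldh1l1, Slc1a2, Slc1a3 and Aqp4 for astrocytes and Sox10, Mbp, Mog and Cnp for oligodendrocytes. For each gene, the CpG sites within 1 kb to either side of the annotated start, called the promoter here, were kept apart from the CpG sites in the rest of the gene body. The study performed reduced representation bisulfite sequencing (RRBS) on mouse ESCs and neurons of the R1 line and on the same cell types of the Tet/Tet line, with 1 library for each of these 4 conditions. R1 is a wild-type embryonic stem cell line. The Tet/Tet line was derived from it with tet-off constructs at Dnmt1, the maintenance DNA methyltransferase, which it overexpresses, and was cultured under puromycin and neomycin selection. By the labels, neurons were obtained by growing ESCs without LIF as embryoid bodies for 2 days and then for 10 to 15 days in Ndiff227 medium. Each condition therefore rests on a single line and a single library, no spread between cultures can be given, and no test between conditions was made. No transcripts were measured, so the presence of neurons or glia in the cultures could not be checked against marker expression.

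In RRBS, DNA is cut with MspI at CCGG and treated with bisulfite, which leaves methylated cytosines to be read as cytosine. The deposited value of a site is the percent of reads that reported cytosine, and the number of reads behind it is unknown. The tables listed from 2310510 to 5295489 sites, of which 1545651 were in all 4 and were used for the comparisons. Over all listed sites, 53.0% of those of R1 neurons and 4.43% of those of Tet/Tet neurons were at 100%, while the R1 and Tet/Tet ESC tables had 12.3% and 17.9%. At 0% were 12.6% of the sites of R1 neurons and 56.2% of those of Tet/Tet neurons, against 25.3% and 27.1% in R1 and Tet/Tet ESCs. The ESC libraries belonged to another sequencing project than the neuron libraries, and the labels give phenol and chloroform for the DNA of ESCs and a column kit for that of neurons. The paper instead describes phenol and chloroform extraction for both cell types. Cell type, sequencing project and any difference in DNA preparation cannot be told apart, whereas R1 and Tet/Tet libraries of the same cell type shared a project.

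Astrocytes take up glutamate, regulate water and potassium at synapses and vessels, and build a cytoskeleton rich in GFAP, while oligodendrocytes wrap axons in myelin. In the developing brain, neural precursors make neurons before glia, and methylation at astrocyte genes such as Gfap is known to be lost when precursors become able to form astrocytes. Methylation of a CpG-rich promoter usually goes with silencing, whereas methylation of gene bodies is also common in expressed genes.

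The sequences below carry the promoter results of Aldh1l1, which encodes a folate enzyme used as an astrocyte marker, and of Sox10, the transcription factor that specifies oligodendrocytes. They are shown because each holds several listed CpGs close together that differed widely between ESCs and R1 neurons. Each is given 5′ to 3′ on the strand of the gene from the GRCm38 (mm10) sequence, with every CpG in capitals. The Aldh1l1 stretch is chr6:90486247-90486387 on the plus strand, from -180 to -40 bp of the gene start, and that of Sox10 is chr15:79166030-79166180 on the minus strand, from -940 to -790 bp. Neither lies in a UTR.
Aldh1l1 before the gene start: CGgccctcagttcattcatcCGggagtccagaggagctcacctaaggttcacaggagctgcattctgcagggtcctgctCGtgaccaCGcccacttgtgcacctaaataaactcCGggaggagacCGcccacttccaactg
Sox10 upstream: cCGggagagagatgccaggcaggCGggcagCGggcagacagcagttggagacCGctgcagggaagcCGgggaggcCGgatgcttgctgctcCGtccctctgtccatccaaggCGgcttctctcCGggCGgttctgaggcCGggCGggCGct

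In the Aldh1l1 stretch, 5 of the 6 CpGs were listed in all 4 tables, with a mean of 5.51% in ESCs and 85.2% in neurons of the R1 line, against 5.32% and 8.79% in those of the Tet/Tet line. The lowest of these CpGs was at 70.9% in R1 neurons and the highest at 13.4% in Tet/Tet neurons. All 13 CpGs of the Sox10 stretch were listed in all 4 tables. Their means were 33.7% in R1 ESCs against 94.0% in R1 neurons, and 28.9% against 15.0% in Tet/Tet. Every CpG of this stretch was higher in R1 neurons, where the lowest was 89.5%, than in any other library, where the highest was 48.4%.

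Not every gene had listed promoter sites. Aqp4, the water channel of astrocyte endfeet, had no listed promoter site in any of the 4 tables. Its promoter holds 9 CpGs and 0 MspI sites. Gfap, the astrocyte intermediate filament protein, had 26 CpGs and 1 MspI site in its promoter and no site listed in all 4 tables, with 0 sites for R1 ESCs, 6 for R1 neurons, 4 for Tet/Tet ESCs and 8 for Tet/Tet neurons. The 4 Gfap sites of Tet/Tet ESCs averaged 25%, the 6 of R1 neurons 52.1%, and the 8 of Tet/Tet neurons were all at 0%. Mog, a myelin surface glycoprotein, had 3 shared promoter sites, fewer than the 5 asked of a gene before it was counted. The other 6 genes had from 9 to 87 shared promoter sites, and all 9 genes had from 13 to 181 shared sites in the gene body.

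**Figure D1:**
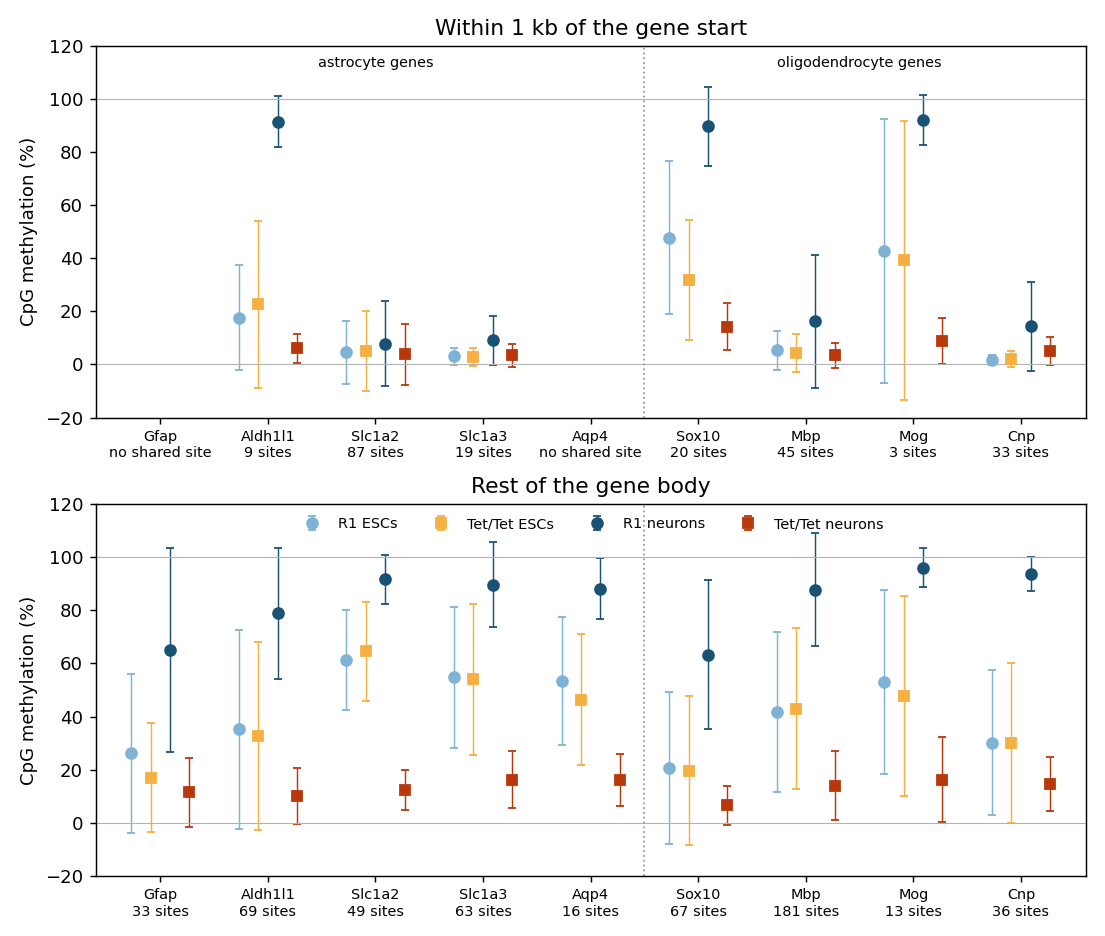
Mean CpG methylation (%, vertical axis) of each gene in the 4 libraries, within 1 kb of the gene start (top) and in the rest of the gene body (bottom), over the sites listed in all 4 tables. Points are means and bars the SD over sites, which is no error between cultures. R1 neurons lie highest for every gene with values, and in the gene bodies Tet/Tet neurons lie lowest for all 9 genes, between 6.48% and 16.2%.

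Among the 6 promoters with at least 5 shared sites, 4 were higher in R1 neurons than in R1 ESCs by at least 10 percentage points, namely Aldh1l1, Sox10, Mbp and Cnp. Over all genes, 26.2% of the 11466 promoters with 5 sites were higher by that much. The median promoter difference of the 6 genes was 11.8 percentage points in R1 against 2.36 over all genes. In Tet/Tet, 2 of the 6 promoters, Aldh1l1 and Sox10, were lower in neurons than in ESCs by at least 10 percentage points, against 7.35% of all promoters. The Tet/Tet median was -1.12 percentage points for the 6 genes and -0.0824 for all genes, and that of the members was above 0 with other windows, at 1.05 within 500 bp and 1.90 around principal starts. Sites within a promoter share DNA fragments, so they are not independent measurements.

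The Aldh1l1 promoter, on chromosome 6 where the gene spans 90486427 to 90600203 on the plus strand, had 9 shared sites. Its mean level was 17.6% in ESCs and 91.5% in neurons for R1, and 22.6% and 6.02% for Tet/Tet. The difference between neurons and ESCs was 73.9 ± 15.5 percentage points (SD over 9 sites) in R1 and -16.6 ± 35.2 in Tet/Tet. All 9 sites were higher in R1 neurons by at least 10 percentage points, and the R1 difference was larger than that of 98.5% of all promoters. The Tet/Tet difference rested on 3 sites from -889 to -839 bp, which averaged 55.0% in ESCs and 0% in neurons of the Tet/Tet line. The site with the largest Tet/Tet difference, at -839 bp (position 90485588), was at 40% in ESCs and 100% in neurons of the R1 line, against 100% and 0% in those of the Tet/Tet line. The 6 sites from -160 to 69 bp averaged 6.37% in R1 ESCs against 87.2% in R1 neurons, and 6.39% against 9.03% in Tet/Tet, and thus differed by only 2.63 percentage points between Tet/Tet neurons and Tet/Tet ESCs. The largest R1 difference was 87.6 percentage points at the site -66 bp from the start (position 90486361), which lies in the sequence given for Aldh1l1. The start used here is that of a noncoding transcript, and the noncoding gene Gm45901 overlaps it.

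The promoters of the glutamate transporters of astrocytes had low mean levels in all 4 libraries. That of Slc1a2 held 115 CpGs, more than 83.5% of genes, and that of Slc1a3 held 53, more than 44.8%. Slc1a2, which encodes GLT-1 and spans 102658659 to 102790784 on the plus strand of chromosome 2, had 87 shared promoter sites with means of 4.53% in ESCs and 7.83% in neurons for R1, and 5.11% and 3.79% for Tet/Tet. The 69 sites from 62 to 622 bp averaged 2.63% in R1 ESCs and 2.18% in R1 neurons. The 14 sites from -448 to -122 bp stood apart, with 13.6% in R1 ESCs and 33.7% in R1 neurons, against 12.9% and 11.0% in the Tet/Tet libraries. The largest R1 difference was 52.1 percentage points at -403 bp (position 102658256). In Tet/Tet the largest was -66.7 percentage points at 239 bp (position 102658898), a UTR site at 100% in Tet/Tet ESCs and 33.3% in both neuron libraries.

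Slc1a3, which encodes GLAST and spans 8634124 to 8710764 on the minus strand of chromosome 15, had 19 shared promoter sites at 3.12% in ESCs and 9.03% in neurons of the R1 line, against 2.85% and 3.52% in those of the Tet/Tet line. Its 4 sites from 24 to 63 bp averaged 23.6% in R1 neurons and between 1.52% and 2.95% in the other libraries. The remaining 15 sites averaged 5.13% in R1 neurons and 3.17% in R1 ESCs. The largest R1 difference was 29.1 percentage points at 51 bp (position 8710713) and the largest Tet/Tet difference 7.35 at 187 bp (position 8710577), both in a UTR.

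Sox10 spans 79154908 to 79165240 on the minus strand of chromosome 15. Its 20 shared promoter sites averaged 47.8% in R1 ESCs against 89.7% in R1 neurons, and 31.9% against 14.2% in Tet/Tet. The difference between neurons and ESCs was 41.9 ± 34.9 percentage points (SD over 20 sites) in R1 and -17.6 ± 25.1 in Tet/Tet. The 16 sites from -938 to -635 bp, which lie in a CpG island upstream of the gene, averaged 40.4% in R1 ESCs and 93.0% in R1 neurons. At the other 4 sites, from 952 to 998 bp, the means were 77.2% and 76.4%, over sites that went both ways. The site at 998 bp was at 8.70% in ESCs and 72.5% in neurons of R1, that at 952 bp at 100% and 33.3%, and the remaining 2 were at 100% in both. The annotated noncoding gene Gm10863 also covers the upstream stretch. The largest R1 difference was 70.0 percentage points at -812 bp (position 79166052), and the largest Tet/Tet difference was -100 at 967 bp (position 79164273), which was at 100% in the other 3 libraries.

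Among the 6 counted promoters, that of Sox10 was also the only one lower in Tet/Tet ESCs than in R1 ESCs by at least 10 percentage points. This was 1 of 6 promoters, against 1.12% of all promoters. The difference was -15.9 percentage points. It rested on 3 sites at which the ESC libraries were 50 percentage points or more apart, and over the other 17 sites it was -3.96. In the gene bodies 0 of 9 members were lower by that much in Tet/Tet ESCs, against 4.17% of all gene bodies, with values from -9.28 for Gfap to 3.19 for Slc1a2. Around the principal starts described below, shared sites of Gfap were at 14.8% in Tet/Tet ESCs against 35.3% in R1 ESCs, and those of Aqp4 at 47.6% against 61.5%. Over each library's own listed sites these were 22.6% against 29.1% and 60.7% against 61.5%.

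Cnp, which encodes a phosphodiesterase of myelin, spans 100574904 to 100591729 on the plus strand of chromosome 11. Its promoter is an island in which 33 shared sites averaged 1.55% in ESCs and 14.3% in neurons for R1, and 1.99% and 5.12% for Tet/Tet. The difference was 12.8 ± 16.8 percentage points (SD over 33 sites) in R1 and 3.13 ± 4.45 in Tet/Tet. The stretch directly before the start and a stretch of coding exon downstream are shown because R1 neurons differed between them. They are chr11:100574844-100574904, from -60 to 0 bp, and chr11:100576369-100576464, on the plus strand of GRCm38, with CpGs in capitals.
Cnp before the start: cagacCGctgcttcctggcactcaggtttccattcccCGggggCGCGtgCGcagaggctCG
Cnp coding exon: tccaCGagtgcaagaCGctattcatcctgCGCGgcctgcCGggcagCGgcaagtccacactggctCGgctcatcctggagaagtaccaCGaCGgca

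The 6 CpGs before the start averaged 0.836% in ESCs and 30.9% in neurons of the R1 line, against 0.919% and 6.79% in those of the Tet/Tet line. They ranged from 7.21% to 100% in R1 neurons, with the site at -55 bp (position 100574849) at 0% in both ESC libraries, 100% in neurons of R1 and 25% in those of Tet/Tet. That site had the largest difference of the promoter in both lines. The 27 sites after the start averaged 10.6% in neurons of R1 and 4.75% in those of Tet/Tet. In the coding stretch, 8 of 9 CpGs were listed in all 4 tables and averaged 13.6% in R1 ESCs against 92.4% in R1 neurons, and 10.3% against 14.6% in Tet/Tet. Within the same gene, then, the level in R1 neurons was 30.9% directly before the start, 10.6% after it and 92.4% in the coding stretch, whereas Tet/Tet neurons were at 6.79%, 4.75% and 14.6%.

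Mbp encodes myelin basic protein and spans 82475146 to 82585637 on the plus strand of chromosome 18. Its gene start is that of the longer transcripts, known as Golli. The 45 shared promoter sites averaged 5.29% in ESCs and 16.2% in neurons for R1, and 4.34% and 3.41% for Tet/Tet. The 5 sites from -533 to -298 bp were at 15.8% in R1 ESCs and 81.1% in R1 neurons, against 15.2% and 10.5% in the Tet/Tet libraries. Nearer to the start, the 3 sites from -217 to -175 bp were at 2.96% in R1 ESCs and 21.0% in R1 neurons, against 1.87% and 4.25% in the Tet/Tet libraries. The 37 sites from 29 to 985 bp were at 4.06% in R1 ESCs and 7.05% in R1 neurons. The largest R1 difference was 78.3 percentage points at -298 bp (position 82474848), and the largest Tet/Tet difference was -25 at 655 bp (position 82475801).

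Mog spans 37010743 to 37023398 on the minus strand of chromosome 17. Its 3 shared promoter sites averaged 42.6% in ESCs and 92.0% in neurons of the R1 line, against 39.2% and 8.81% in those of the Tet/Tet line. The sites did not behave alike. Those at 139 and 186 bp averaged 13.9% in R1 ESCs against 88.0% in R1 neurons, and 8.85% against 13.2% in Tet/Tet. The site at 139 bp (position 37023259) had the largest R1 difference, 81.1 percentage points. The site at -945 bp (position 37024343) was at 100% in all libraries but Tet/Tet neurons, where it was at 0%, and gave the largest Tet/Tet difference of -100 percentage points.

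**Figure D2:**
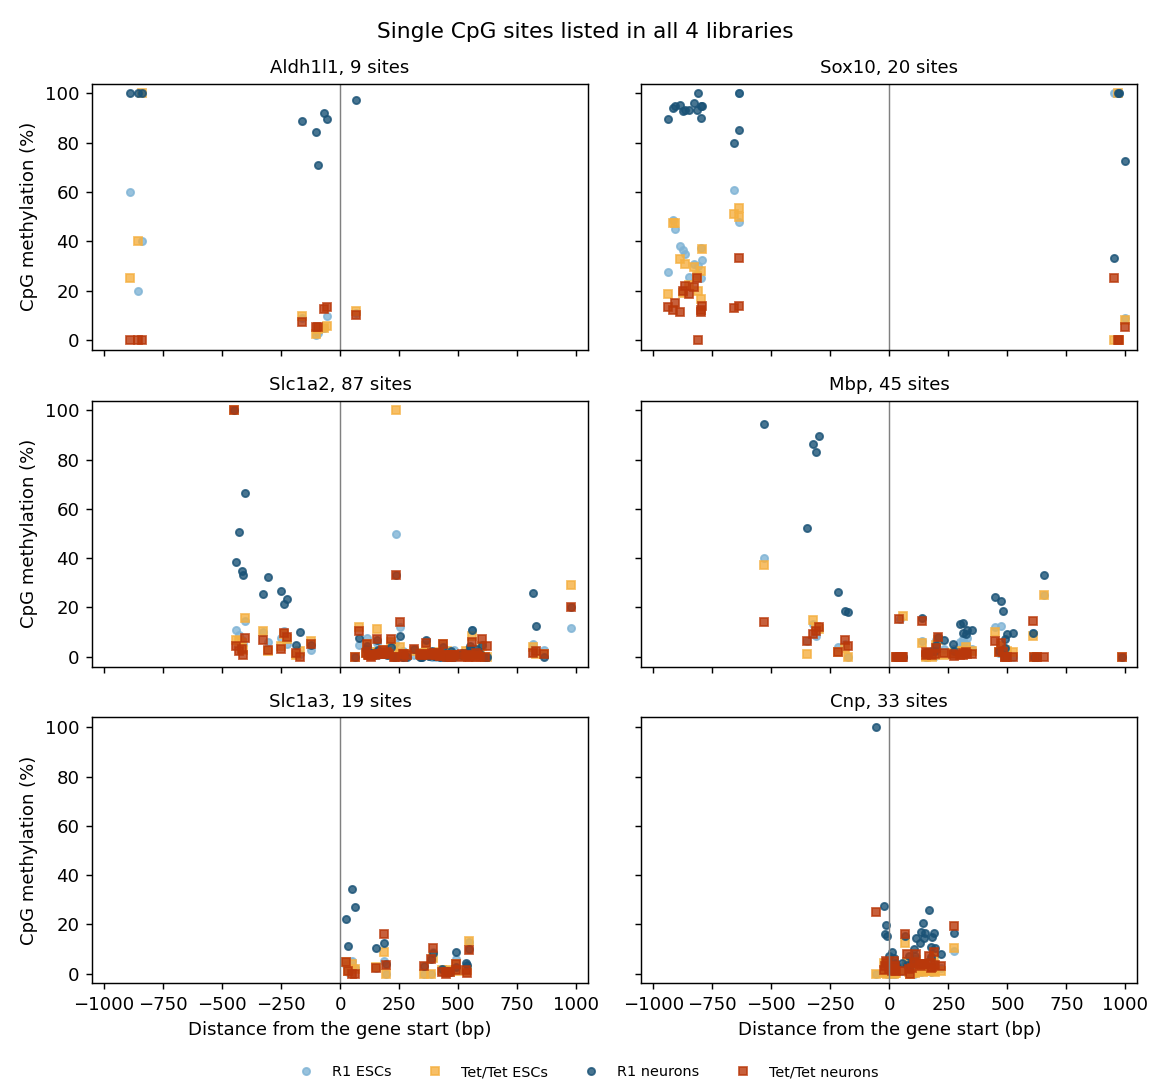
CpG methylation (%, vertical axis) of single sites against the distance from the gene start (bp, horizontal axis) for the 6 promoters with at least 5 shared sites. Each point is a site in 1 of the 4 libraries, and the vertical line is the gene start. R1 neurons are high upstream of Aldh1l1 and Sox10 and, at Mbp, from -533 to -298 bp. They are low downstream of the start of Slc1a2, where 69 sites average 2.18%.

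The promoters were then set beside their CpG content. The observed over expected CpG ratio of the 2 kb promoter ranged from 0.146 for Aqp4 and 0.182 for Mog to 0.655 for Slc1a2. Over all genes, the median R1 difference was 45.6 percentage points in promoters with a ratio below 0.2, 37.9 from 0.2 to 0.4, 4.35 from 0.4 to 0.6 and 1.06 above 0.6. Aldh1l1 (ratio 0.262) and Sox10 (0.305), which had the largest differences among the 6 counted promoters, were in the class from 0.2 to 0.4. Cnp was in that class too, with a ratio of 0.375, and its 12.8 percentage points lay below the lower quartile of the class, 16.2. Slc1a3 (0.487) and Mbp (0.502) fell into the class from 0.4 to 0.6, whose quartiles were 1.20 and 13.5 percentage points, and Slc1a2 into the class above 0.6. Apart from Aldh1l1, Cnp and Slc1a2, whose differences lay above, below and above the quartiles of their class, the counted promoters lay within them.

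**Figure D3:**
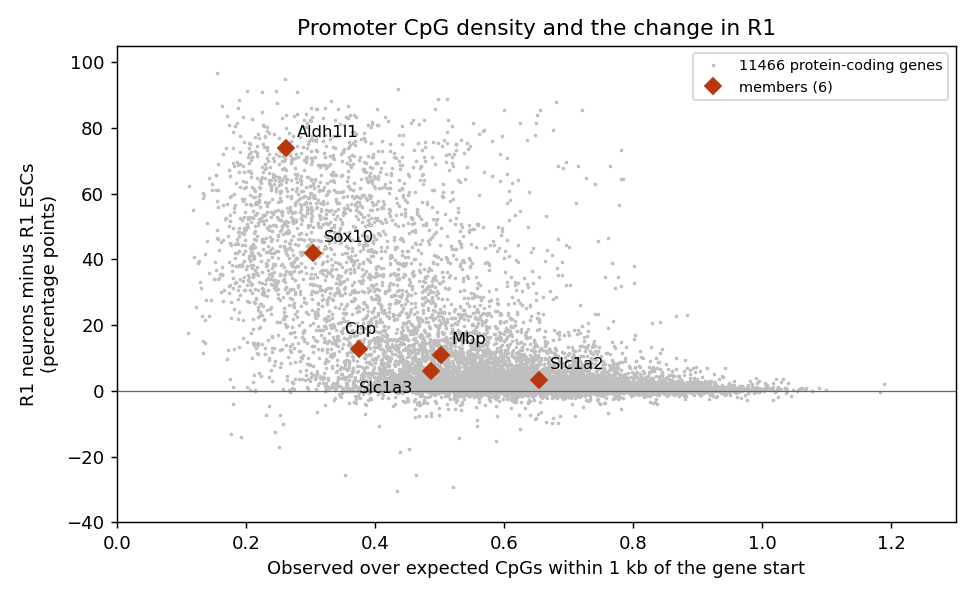
Difference between R1 neurons and R1 ESCs (percentage points, vertical axis) against the observed over expected CpG ratio within 1 kb of the gene start (horizontal axis). Grey points are the 11466 promoters with at least 5 shared sites and diamonds the 6 members among them. Aldh1l1 (73.9) and Sox10 (41.9) lie at low ratios and Slc1a2 (3.30) at the highest ratio of the 6.

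For 4 members the annotated gene start was not the start of the principal transcript, the isoform that the annotation marks as principal by APPRIS. The distance was 3781 bp for Gfap, 64362 bp for Aldh1l1, 7224 bp for Aqp4 and 79384 bp for Mbp. Windows of 1 kb around the principal starts were therefore added after the sites had been seen. For Aldh1l1, the window holds a stretch that is shown here because it lies at the start of the protein-coding transcript. It is chr6:90550412-90550617, before the principal start on the plus strand of GRCm38, with CpGs in capitals.
Aldh1l1 before the principal start: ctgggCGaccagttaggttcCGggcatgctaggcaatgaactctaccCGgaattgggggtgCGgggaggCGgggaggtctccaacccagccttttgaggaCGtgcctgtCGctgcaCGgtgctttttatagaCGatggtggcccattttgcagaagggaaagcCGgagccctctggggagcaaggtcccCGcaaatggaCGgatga

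Over the 14 shared sites of the Gfap window the means were 35.3% in R1 ESCs, 87.2% in R1 neurons, with 14.8% and 22.6% in the Tet/Tet counterparts. Over these shared sites both lines were higher in neurons, by 51.9 percentage points in R1 and 7.77 in Tet/Tet. Over each library's own listed sites, Tet/Tet was at 22.6% in ESCs and 19.9% in neurons. The 10 shared CpGs of the Aldh1l1 stretch averaged 4.85% in ESCs and 54.2% in neurons of the R1 line, against 2.42% and 6.52% in those of the Tet/Tet line. In R1 neurons they ranged from 32.1% to 84.7%. Their mean was below the 91.5% at the outer start of the same gene, where the lowest shared site was at 70.9%, so single sites overlapped. Over the 20 shared sites of this window the difference was 46.1 percentage points in R1 and 3.78 in Tet/Tet.

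The Mbp window around the principal start had 6 shared sites at 6.01% in R1 ESCs against 91.0% in R1 neurons, and 5.39% against 8.91% in Tet/Tet. Over these sites the difference was 85.0 percentage points in R1 and 3.52 in Tet/Tet. Over each library's own listed sites, Tet/Tet was at 38.0% in ESCs (15 sites) and 11.4% in neurons (29 sites). The direction in Tet/Tet thus depended on the sites used. Over shared sites, the start of the myelin isoforms was at 91.0% in R1 neurons while the outer start of the same gene was at 16.2%. The Aqp4 window, in a gene that spans 15389496 to 15410982 on the minus strand of chromosome 18, had 9 shared sites at 61.5% in ESCs and 87.6% in neurons for R1, and 47.6% and 15.6% for Tet/Tet. Over shared sites, Aqp4 had the only one of these 4 windows with a lower level in Tet/Tet neurons than in Tet/Tet ESCs, by -32.0 percentage points. Over each library's own listed sites, the windows of Gfap and Mbp were lower in Tet/Tet neurons too. With principal starts, 8 members had at least 5 shared sites, of which 6 were higher by at least 10 percentage points in R1 neurons, against 26.2% of the 11624 windows of all genes. In Tet/Tet, 2 of the 8, Aqp4 and Sox10, were lower by that much, against 7.3% of all windows.

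**Figure D4:**
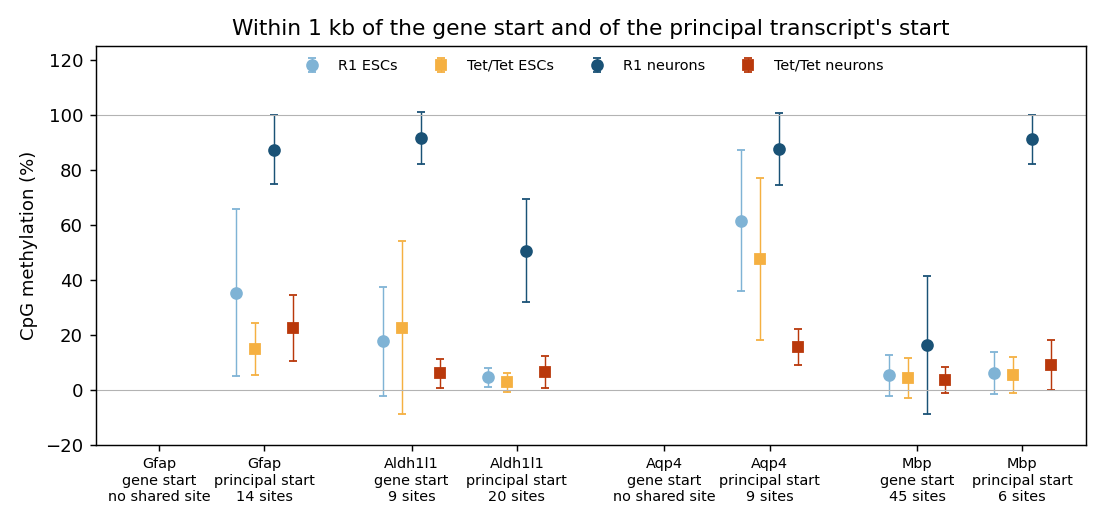
Mean CpG methylation (%, vertical axis) within 1 kb of the gene start and of the principal transcript's start for the 4 genes in which these differ. Points are means over sites listed in all 4 libraries and bars the SD over sites. R1 neurons were at 91.0% at the principal start of Mbp and at 16.2% at its gene start, and Gfap and Aqp4 had shared sites only around the principal start.

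Upstream of Gfap lies a stretch that matches TTCNNNGAA, the consensus of STAT factors, which carry the signal of astrocyte-inducing cytokines. The match begins -1515 bp from the principal start, in an intron of the annotated gene, at chr11:102898622-102898682 on the minus strand of GRCm38. It is shown because it holds this CpG, and the capitals mark the match.
Gfap STAT match: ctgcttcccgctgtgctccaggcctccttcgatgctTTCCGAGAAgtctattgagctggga

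The CpG inside the match (position 102898642) and the other 2 CpGs of this stretch were listed in the neuron tables only. No difference from ESCs is given for that reason. All 3 were at 100% in R1 neurons and at 0% in Tet/Tet neurons. Over all listed sites, 53.0% of those of R1 neurons were at 100% and 56.2% of those of Tet/Tet neurons at 0%, so these values are common in each library. The motif was searched on both strands in the 2 kb before the principal start. Of 21938 protein-coding genes, 48.7% held a TTCNNNGAA match and 7.38% a match with a CpG in it. Among the members, Gfap and Aqp4 held a match with a CpG. The letters ACAAT, the core bound by SOX factors, were found before 94.9% of all starts and before those of all members but Gfap.

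In the gene bodies the members were more alike. All 9 were higher in R1 neurons than in R1 ESCs by at least 10 percentage points, against 94.4% of 11684 gene bodies, so the members did not stand out by this count. The R1 differences ran from 30.3 percentage points for Slc1a2 to 63.6 for Cnp with a median of 42.7, against 40.4 for all genes. In Tet/Tet, 8 of 9 gene bodies were lower in neurons than in ESCs by at least 10 percentage points, against 75.9% of all gene bodies. The Tet/Tet median was -29.0 percentage points for the members and -24.6 for all genes. Of the 527 shared gene body sites of the 9 genes, 446 were higher by at least 10 percentage points in R1 neurons and 17 were lower. In Tet/Tet, 324 were lower and 30 higher. No such share was taken over the gene body sites of all genes, so the site counts cannot show whether the members stand out.

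Among the astrocyte genes, the body of Slc1a2 had the largest Tet/Tet difference, with 61.3% in ESCs and 91.6% in neurons of the R1 line, against 64.5% and 12.4% in those of the Tet/Tet line over 49 sites. Its difference of -52.1 percentage points in Tet/Tet was lower than that of all but 4.36% of gene bodies. Slc1a3 had 54.8% and 89.6% in R1 and 54.0% and 16.1% in Tet/Tet over 63 sites. The body of Aldh1l1 had 35.2% and 78.9% in R1 and 32.7% and 10.2% in Tet/Tet over 69 sites. That of Aqp4 had 53.4% and 88.2% in R1 and 46.3% and 16.1% in Tet/Tet over 16 sites. In these 4 gene bodies, as in those of all members, R1 neurons were highest and Tet/Tet neurons lowest. The order of the ESC libraries varied, with Tet/Tet ESCs above R1 ESCs in Slc1a2 and below in the others named here.

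Gfap was the exception among the 9 to the count in Tet/Tet, with 26.2% in R1 ESCs against 65.2% in R1 neurons, and 16.9% against 11.4% in Tet/Tet over 33 sites and a Tet/Tet difference of -5.55 ± 23.3 percentage points (SD over sites). That value was the least negative of those tried. It was -10.3 with each library's own sites, -15.4 with the principal start and -28.5 without CpG islands, so Gfap was no exception under those settings. The body of Gfap was not uniform. The island from 3743 to 4192 bp, at the principal start, was at 87.2% in R1 neurons, while the island from 7173 to 7970 bp was low in all 4 libraries, with 3.06% and 9.86% in ESCs and neurons of R1 and 4.12% and 0.556% in those of Tet/Tet over 10 sites. The 20 coding exon sites of Gfap were higher in Tet/Tet neurons than in Tet/Tet ESCs by 4.20 percentage points, and the 13 intron sites differed by -20.5.

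Among the oligodendrocyte genes, the body of Cnp had the largest R1 difference, from 30.1% in R1 ESCs to 93.7% in R1 neurons over 36 sites, larger than that of 92.1% of gene bodies. Its Tet/Tet libraries were at 30.0% in ESCs and 14.6% in neurons. The body of Mbp had 41.7% in ESCs and 87.8% in neurons for R1, and 42.9% and 13.9% for Tet/Tet over 181 sites. That of Mog had 53.0% and 96.0% in R1 and 47.6% and 16.2% in Tet/Tet over 13 sites. The body of Sox10 was the lowest in R1 neurons, at 63.3% over 67 sites, with 20.6% in R1 ESCs and, in Tet/Tet, 19.6% in ESCs and 6.48% in neurons. Of its sites, 44 lay in an island from 1142 to 2026 bp that was at 8.27% in ESCs and 49.4% in neurons of the R1 line, against 7.64% and 4.14% in those of the Tet/Tet line. Within this island the sites of R1 neurons ranged from 0% to 100%.

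By annotation, over all 9 genes, the 346 intron sites differed by 41.9 percentage points in R1 and -32.5 in Tet/Tet, and the 119 coding exon sites by 45.5 and -16.6. The coding exon sites were lower than the intron sites in Tet/Tet ESCs, at 31.1% against 45.1%, while Tet/Tet neurons were at 14.6% and 12.5%. The 45 UTR sites differed by 43.3 percentage points in R1 and -11.0 in Tet/Tet. The 17 noncoding exon sites differed by 43.4 and -30.6. These classes pool genes with unequal numbers of sites, and 145 of the intron sites were in Mbp. Within genes, the Tet/Tet difference was more negative in introns than in coding exons in 6 of 9 members and less negative in 3, Aldh1l1, Slc1a3 and Aqp4. In Slc1a3 it was -51.1 in coding exons and -31.6 in introns.

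Within the neurons, which shared a sequencing project, the members were lower in Tet/Tet than in R1. In the promoter, 3 of 6 were lower by at least 10 percentage points, with Aldh1l1 at -85.5, Sox10 at -75.4 and Mbp at -12.8, against 26.6% of all promoters. In the gene body, 9 of 9 were lower, from -53.8 for Gfap to -79.2 for Slc1a2, against 96.2% of all gene bodies. The difference between the lines in the change from ESC to neuron had a median of -10.7 percentage points in the promoter of the 6 counted members and -72.7 in the gene body of all 9, against -2.60 and -70.7 over all genes. In the gene body the members were thus close to all genes on this measure.

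**Figure D5:**
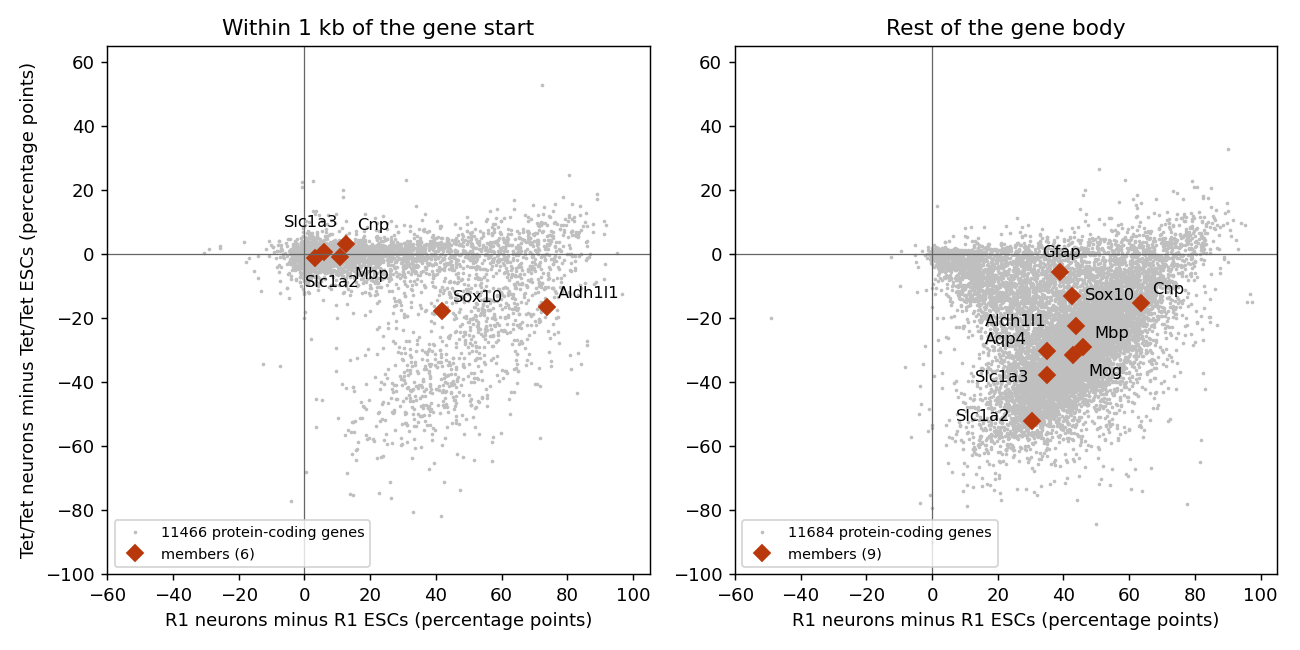
Difference between neurons and ESCs in Tet/Tet (vertical axis) against that in R1 (horizontal axis), both in percentage points, for the promoter (left) and the rest of the gene body (right). Grey points are genes with at least 5 shared sites and diamonds are the members. The 9 gene bodies lie to the right of 0 in R1 and below 0 in Tet/Tet, inside the cloud of all genes, and in the promoter Aldh1l1 and Sox10 lie apart from the other 4 members.

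Other genes of the same cell types were set beside the members. Of the genes without a counted promoter in these lists, 4 astrocyte, 2 oligodendrocyte, 3 neuronal and 2 microglial genes lie on chromosomes 7 to 10 where Tet/Tet neurons were not analysed here. Of 15 other astrocyte genes, 11 had at least 5 shared promoter sites and 2 of these were higher by at least 10 percentage points in R1 neurons, with Aldoc, a glycolytic enzyme of astrocytes, the largest at 39.7 and Hes5, a Notch effector, the smallest at -0.163. Of 16 other oligodendrocyte genes, 11 had enough sites and 4 were higher, with Mag, a myelin-associated glycoprotein, the largest at 47.3 percentage points and Nkx2-2, a transcription factor, the smallest at -0.575. Among 15 neuronal genes the count was 3 of 9, with Slc17a6, a vesicular glutamate transporter, at 22.7 and Mapt, which encodes tau, at -0.179. The only counted microglial promoter was that of Tmem119, at 14.3. The median R1 differences of the other astrocyte, other oligodendrocyte and neuronal promoters were 3.57, 3.73 and 3.39 percentage points, against 2.36 over all promoters. In Tet/Tet 1 promoter of each of the 4 lists was lower by at least 10. Over all promoters, 26.2% were higher by at least 10 percentage points in R1 neurons and 7.35% were lower by that much in Tet/Tet neurons. With so few genes per list, the counts are given as description only.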

How the data were processed

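RRBS covered 4 conditions with 1 library each, ESCs and neurons of the R1 and the Tet/Tet line. Per the submitters' processing notes, the authors used Trim Galore 0.6.4, FastQC 0.11.8, Bismark 0.19.0 and MethylDackel 0.3.0 with mm10, and they deposited, for every CpG, the percent of its reads that were read as cytosine, without normalization. Read counts are not in the tables, so the depth per site is unknown, no read minimum could be set, Fisher's exact test was not run and no p-value is given. Levels are unweighted means over sites listed in all 4 tables, obtained with numpy 2.4.6 in Python 3.11.15, and figures were drawn with matplotlib 3.10.9. The summaries were tested on simulated data. All listed member sites matched a CpG of GRCm38. A gene was counted with at least 5 shared sites and 10 percentage points. Named are all 9 members, the promoter site with the largest difference in each line, and the largest and smallest R1 promoter of each comparison list. Splits of promoters into stretches and principal starts were chosen after the sites had been seen. CpG islands were above 200 bp with at least 50% GC and a ratio above 0.6. The members and lists were chosen with earlier results of these data known. For Tet/Tet neurons, chromosomes 8 and 9 and parts of 7 and 10, which hold no member, were not analysed here, and 1 further stretch of Gfap, besides the one printed, is not reported here. Window sizes, site sets, thresholds and start definitions were varied.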

Additional observations from a re-analysis of the deposited data

Results flagged for a closer look

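With 1 library for each condition, R1 and Tet/Tet moved in opposite directions between ESCs and neurons at most members, and none of these differences was tested. The values below are the Tet/Tet difference minus the R1 difference in percentage points, over sites listed in all 4 tables. In the promoter the value was -90.5 for Aldh1l1, -79.8 for Mog, -59.6 for Sox10, -11.8 for Mbp and -4.62 for Slc1a2. In the gene body it was -82.4 for Slc1a2, -79.1 for Cnp, -75.1 for Mbp, -74.5 for Mog, -72.7 for Slc1a3, -66.2 for Aldh1l1, -65.0 for Aqp4, -55.8 for Sox10 and -44.5 for Gfap. Over all genes the median of this value was -2.60 in the promoter and -70.7 in the gene body, where that of the members was -72.7. Of all gene bodies, 94.4% were higher in R1 neurons and 75.9% lower in Tet/Tet neurons by at least 10 percentage points. How many of all genes went in opposite directions was not counted. The Mog promoter value came from 3 sites. The promoter of Mbp differed by only -0.932 in Tet/Tet and changed sign under other settings. So did the Tet/Tet promoters of Aldh1l1 (2.63 with 500 bp) and Mog (4.36 with 500 bp), and the Tet/Tet body of Mog (0.966 with 2 kb). The R1 promoter of Sox10 was at -0.725 without islands, over 4 sites. The promoters of Slc1a3 and Cnp were higher in neurons in both lines within 1 kb of the gene start. In Tet/Tet, however, Slc1a3 was at -27.2 around any annotated start and Cnp at -2.78 with 2 kb.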

How the results depend on the processing

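With no replicates and no depth, a value was taken to hold when it moved by less than 10 percentage points and a count when it was within 1.5 times. No paired analysis was possible because each condition had 1 library and the labels give no shared replicate. The gene body medians held under every alternative tried. The median R1 promoter difference of 11.8 was 32.8 with 2 kb, 38.2 around any annotated start, 69.6 without CpG islands (2 genes left) and 34.0 around the principal start, an alternative added after the data were seen. The promoter difference between the lines, -10.7, was -41.6, -44.1, -80.2 and -43.2 in the same order. The 4 promoters higher in R1 were 2 at 25 percentage points, 2 without islands and 8 around any start, where gene body sites join the promoter. The 2 promoters lower in Tet/Tet were 0 at 25 points, 0 with 500 bp, and 1 each with 10 sites, each library's own sites, no islands or MspI fragments of 40 to 220 bp. The 8 gene bodies lower in Tet/Tet were 5 at 25 points, 4 within such fragments and 7 with 2 kb. They were 9 with each library's own sites, without islands, around any start and with the principal start. Differences of at least 10 percentage points turned in sign for the Tet/Tet promoter of Aldh1l1 (2.63 with 500 bp, 3.47 within fragments, 3.78 at the principal start), the Tet/Tet body of Mog (0.966 with 2 kb) and its promoter (4.36 with 500 bp), and the R1 promoter of Sox10 (-0.725 without islands, over 4 sites). Smaller differences in Tet/Tet promoters turned for Slc1a3 (0.667, and -27.2 around any start), Cnp (3.13, and -2.78 with 2 kb), Mbp (-0.932, and 0.0497 with 500 bp, 0.114 with own sites and 3.52 at the principal start) and the median of the members (-1.12, and 1.05 with 500 bp, 0.194 within fragments and 1.90 at principal starts). Except where the alternative itself leaves fewer sites, the cause was not tested. Each single-gene value was compared under each alternative, and 11 of these comparisons changed sign, of which 5 began below 10 percentage points. Of the same comparisons, 242 held, 50 moved by at least 10 percentage points and 6 that began at 10 or more reversed. Some genes recur among them.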

Other observations

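The bodies of the comparison lists were counted in the same way, with no test, beside 94.4% of all gene bodies that were higher in R1 neurons and 75.9% that were lower in Tet/Tet neurons. Of the other oligodendrocyte genes, 11 of 14 were higher in R1 neurons by at least 10 percentage points and 10 were lower in Tet/Tet neurons than in Tet/Tet ESCs, with medians of 38.6 and -26.9 percentage points. Of the other astrocyte genes, 6 of 8 were higher in R1 and 5 lower in Tet/Tet, with smaller medians of 16.4 and -11.8. Neuronal genes gave 8 and 6 of 10, with medians of 26.3 and -10.2, and 1 of them was higher by 15.0 in Tet/Tet. The members had medians of 42.7 and -29.0. In these 3 lists both counts were below the share of all gene bodies. Microglial genes gave 7 and 7 of 7. At Nfib, a transcription factor of gliogenesis, the promoter was lower in Tet/Tet neurons than in Tet/Tet ESCs by -45.2 percentage points over 9 sites and higher by 3.57 in R1. It was named after its value was seen.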
